A study of Mus musculus with 10 samples.

Results

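The proteasome genes of mouse V6.5 embryonic stem (ES) cells were followed under knockdown of Rbfox2, an RNA-binding protein that regulates splicing. Members were the rows of the expression table whose gene name starts with Psma, Psmb, Psmc, Psmd, Psme or Psmg. This gave 43 of 26857 rows, and all 43 were among the 12632 rows with a mean of at least 1 FPKM, called expressed here (FPKM is a count of fragments divided by transcript length and library size, so levels can be compared between genes). No row name starts with Psmg. The RNA-seq samples were V6.5 ES cells infected in biological duplicate with a lentivirus carrying 1 of 4 hairpins. The control hairpins, shLuc and shGFP, target luciferase and green fluorescent protein, and shFox2-1 and shFox2-2 target Rbfox2. All 4 groups were selected for 3 days in puromycin at 1 µg/ml and then kept 24 h without it. For iCLIP, a method that finds where a protein was crosslinked to RNA by ultraviolet light, V6.5 cells carried a lentiviral, doxycycline-inducible human RBFOX2, either tagged with FLAG-HA or untagged. Both lines had been selected in hygromycin, were induced for 24 h with doxycycline at 1 µg/ml and were irradiated at 150 mJ/cm2. The iCLIP data thus describe an induced transgene, in 1 tagged and 1 untagged library.

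The proteasome degrades proteins marked with ubiquitin. Its 20S core is a barrel of stacked rings, with outer rings of alpha subunits that gate the entry and inner rings of beta subunits that carry the peptidase sites, and the 19S particle that caps it recognises, unfolds and feeds in the substrate. Interferon induces alternative beta subunits and an alternative cap, which shift the peptides made towards those presented on MHC class I, and ES cells are known for low antigen presentation and for high proteasome activity. When proteasomes fail, the transcription factor Nrf1 (Nfe2l1) raises most subunit genes together through antioxidant response elements in their promoters.

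Because such elements are shared by subunit genes, member promoters were searched on both strands for the core of that element, TGACNNNGC, and for an interferon regulatory factor pair, which is 2 GAAA boxes with 2 bases between them. RefSeq promoters (GRCm38.p6, 250 bases before to 50 after each start site) were found for 36 members, with 39 promoters in all. The antioxidant core occurred in 6 of the 39 (15.4%), in Psmb5, Psmb6, Psmc6, Psmd9, Psmd12 and Psme4, against 12.4% of all 32851 promoters. The interferon pair occurred in 4 (10.3%), in Psmb3, Psmd4, Psmd9 and Psme1, against 3.44%. Neither was found in the promoters of Psmb8, Psmb9 or Psme2. A match is only a match of letters. The stretches are shown because they belong to the catalytic subunits Psmb5 and Psmb6, the ATPase Psmc6 and the interferon-inducible cap subunit Psme1, with the match in capitals. The first 3 are the 250 bases before the start site, at chr14:54617996-54618245 on the minus strand, chr11:70525107-70525356 on the plus strand and chr14:45329574-45329823 on the plus strand. The last is 30 bases around the match next to the start site of Psme1, at chr14:55578493-55578522 on the plus strand. In Psmc6 and Psme1 the match is on the opposite strand, so the capitals show its reverse complement.
Psmb5: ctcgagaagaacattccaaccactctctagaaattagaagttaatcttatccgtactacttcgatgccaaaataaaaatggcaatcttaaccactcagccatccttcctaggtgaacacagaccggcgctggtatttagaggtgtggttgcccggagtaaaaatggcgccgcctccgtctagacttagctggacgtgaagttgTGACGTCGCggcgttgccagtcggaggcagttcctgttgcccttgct
Psmb6: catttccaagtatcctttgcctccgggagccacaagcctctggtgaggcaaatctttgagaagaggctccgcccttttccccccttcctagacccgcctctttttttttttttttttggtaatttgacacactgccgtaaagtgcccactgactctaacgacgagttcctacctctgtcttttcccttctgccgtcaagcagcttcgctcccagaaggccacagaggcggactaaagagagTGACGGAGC
Psmc6: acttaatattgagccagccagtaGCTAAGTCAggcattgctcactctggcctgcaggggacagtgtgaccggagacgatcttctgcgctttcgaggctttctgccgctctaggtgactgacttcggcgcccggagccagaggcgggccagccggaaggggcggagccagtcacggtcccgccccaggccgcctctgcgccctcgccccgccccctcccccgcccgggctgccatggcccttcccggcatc
Psme1: cgagctgtgcTTTCGCTTTCccttcccgct

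Each FPKM value in the deposited table pools the duplicates of a hairpin and comes with the authors' interval, so knockdown and control were compared as 2 values against 2, with no standard deviation of cultures. Sequencing depth is unknown because no counts were given. Rbfox2, listed as Rbm9, had 24.7 FPKM with shLuc, 23.3 with shGFP, 8.56 with shFox2-1 and 7.21 with shFox2-2, a log2 fold change of -1.50 ± 0.14 with an unadjusted limma p of 6.82e-05 and an adjusted limma p of 0.913, so the targeted gene itself did not pass this test. Of 10 ES cell markers 9 were found and summed to 1365 to 1653 FPKM per hairpin. The 7 fibroblast markers found summed to 3.35 to 3.74 FPKM, with Lum at 0 in all 4, and the 8 endoderm and mesoderm markers to 4.86 to 5.81 FPKM. In such bulk RNA, fewer cells of a type and less RNA per cell cannot be told apart. Reads may be shared between copies or overlapping genes, so the values of Psmb5, Psmb6, Psmb7 and Psme2, which have near copies in the reference names, and of Psmd1, Psmd13, Psma4, Psmc3ip and Psme1, whose loci overlap another row, are uncertain.

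No proteasome gene passed the test of knockdown against control. In limma on log2(FPKM + 1) over 20281 rows, 0 rows had an adjusted p under 0.05 (0% of all tested), and the smallest adjusted p of a member was 0.978. At an unadjusted limma p under 0.05 there were 6 members, 2 higher (2.3% of all tested rows were) and 4 lower (2.17%). These p-values measure the spread between hairpins. By the deposited intervals, 0 members had both knockdown intervals beyond both control intervals, which was the case for 37 of the 12632 expressed genes (0.293%). Both knockdown values lay above both control values in 6 members, when 14.3% of expressed genes did, and below them in another 6, when 17.8% did. With each hairpin centred on its median expressed gene, which moved a hairpin by at most 0.098 on the log2 scale, the split was 3 higher (17.7% of expressed genes) and 10 lower (18.3%). The members' median log2 fold change was -0.03, beside -0.01 for all expressed genes, with 16 changes above and 27 below 0. Among all 12632 expressed genes, 6016 changes were above and 6616 below 0. The members' median was 0.067 when shGFP was left out and 0.069 when shFox2-2 was left out, so its sign turned with the hairpins used, as did that of all expressed genes, at 0.025 and 0.071.

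The hairpins were also compared one by one. The 31 constitutive subunits, 14 of the 20S core and 17 of the 19S cap, were higher with shGFP than with shLuc in 28 cases, including all 17 of the 19S cap, when 67.6% of expressed genes were. Among expressed genes of at least 5 FPKM, 73.3% were. By locus length this share was 79.0% under 10 kb, 76.7% between 10 and 30 kb and 65.3% above 30 kb. The median difference of the 31 subunits was 0.20 on log2(FPKM + 1), against 0.07 for all expressed genes and 0.09 for those of at least 5 FPKM. With shFox2-1 their median lay 0.07 above the control mean, as did that of all expressed genes. With shFox2-2 it was -0.18 against the control mean, with -0.09 over all expressed genes. The shFox2-2 value was the lowest of the 4 in 19 of the 31 (45.4% of expressed genes), and the shGFP value the highest in 15 (28.4%). The change with knockdown exceeded the difference between the controls in 5 of the 31 (48.1% of expressed genes). Summed over the 19S lid, for example, the levels were 410 FPKM with shLuc, 474 with shGFP, 472 with shFox2-1 and 405 with shFox2-2. No test compared these subunits with other genes. In 9 of the 43 members shFox2-1 lay above and shFox2-2 below both controls (25.6% of expressed genes), and all 9 are constitutive subunits apart from the activator Psme4.

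**Figure D1:**
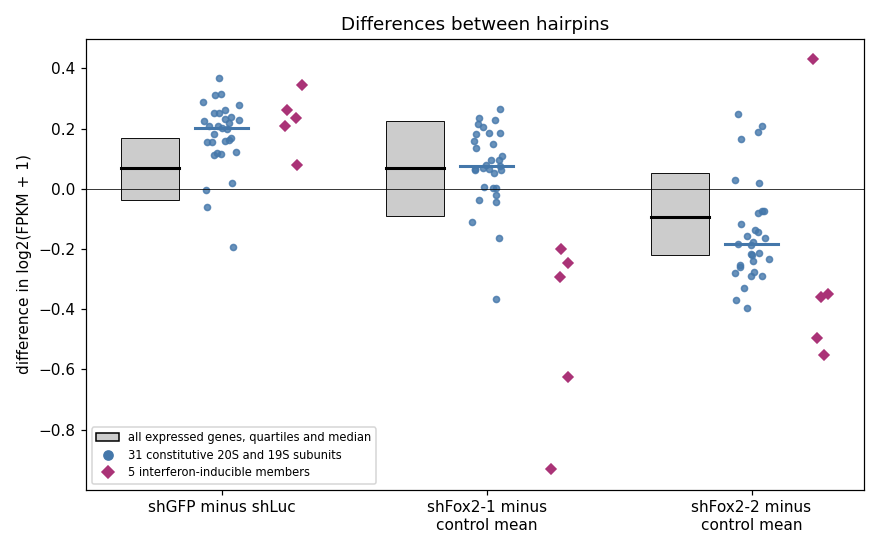
Differences in log2(FPKM + 1) between hairpins (vertical axis) for the 31 constitutive subunits (points, with the median as a line), the 5 interferon-inducible members (diamonds) and all 12632 expressed genes (box of quartiles, median line). The constitutive subunits have a median of 0.20 for shGFP minus shLuc and of -0.18 for shFox2-2 minus the control mean, and the interferon-inducible members lie above 0 in the first column and, apart from Psmb9 with shFox2-2, below 0 in the others.

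The alpha ring of the core, whose subunits form the gate and the docking surface for caps, spanned the widest range of levels. Psma7, the most abundant member of all, had 202 FPKM with shLuc, 219 with shGFP, 211 with shFox2-1 and 236 with shFox2-2. Psma3, the least abundant of the constitutive ring, had 7.08 FPKM with shLuc, 6.07 with shGFP, 7.85 with shFox2-1 and 6.71 with shFox2-2, so the means of 217 and 6.93 FPKM differed 31.4-fold. Subunits that stand in 1 copy per ring therefore differed widely in mRNA level in this table. Of the 7 constitutive alpha genes only Psma5 had its 4 values in order, with 8.57 FPKM with shLuc (6.65 to 10.5), 9.67 with shGFP (7.41 to 11.9), 8.03 with shFox2-1 (6.14 to 9.92) and 6.83 with shFox2-2 (4.80 to 8.85). Both knockdown values lay below both controls and the intervals overlapped. Its log2 fold change was -0.27 ± 0.15 (SE), and that of the other 6 ran from -0.06 to 0.13. Psma2 had 37.1 FPKM with shLuc, 41.4 with shGFP, 38.6 with shFox2-1 and 37.2 with shFox2-2, a narrow spread. Psma4 had 38.2 FPKM with shLuc, 42.7 with shGFP, 44.5 with shFox2-1 and 36.1 with shFox2-2. Psma1 and Psma6 shared the extremes of Psma4, with shFox2-1 the highest and shFox2-2 the lowest.

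**Figure D2:**
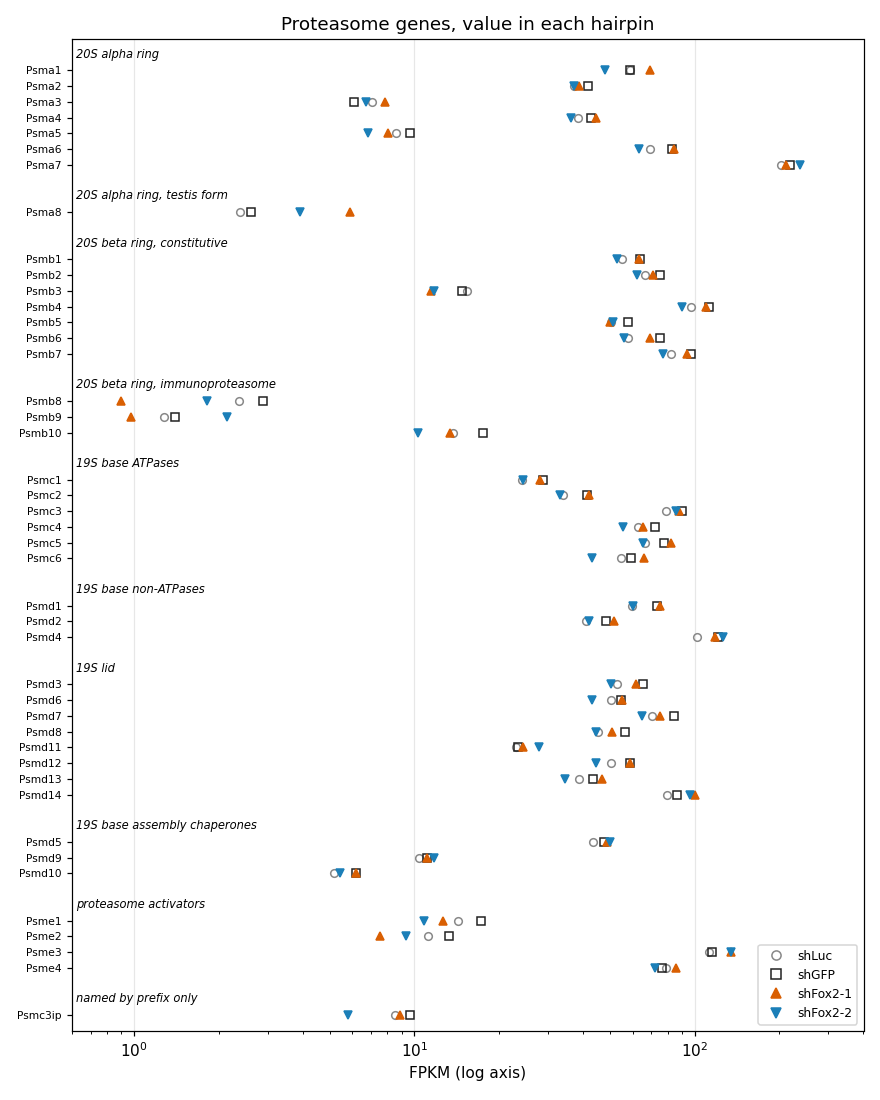
FPKM (log axis) of the 43 members in each of the 4 hairpins, grouped by subcomplex, 1 marker per pooled value. Psma7 is the highest, at 202 to 236 FPKM, and the immunoproteasome subunits Psmb8 and Psmb9 and the testis form Psma8 are the lowest, all under 6 FPKM in every hairpin.

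The beta ring carries the active sites in Psmb5 (chymotrypsin-like), Psmb6 (caspase-like) and Psmb7 (trypsin-like). Psmb5 had 50.1 FPKM with shLuc, 57.7 with shGFP, 49.7 with shFox2-1 and 51.1 with shFox2-2. Psmb6 had 57.8 FPKM with shLuc, 74.9 with shGFP, 69.4 with shFox2-1 and 55.8 with shFox2-2, and Psmb7 had 82.5 FPKM with shLuc, 97.1 with shGFP, 94.0 with shFox2-1 and 77.1 with shFox2-2. For the latter pair the values with shLuc and shFox2-2 were the low ones and those with shGFP and shFox2-1 the high ones, and the shGFP interval of Psmb6 lay above its shLuc interval (0.997% of expressed genes). The structural subunits ranged from Psmb4, with 97.2 FPKM with shLuc, 112 with shGFP, 109 with shFox2-1 and 89.7 with shFox2-2, down to Psmb3. A negative log2 fold change was found for all 7 constitutive beta genes, from -0.35 to -0.03, and for 6616 of the 12632 expressed genes. Against the control mean, the median of the 7 was 0.06 with shFox2-1 and -0.21 with shFox2-2. Over all expressed genes these medians were 0.07 and -0.09. Psmb3, at chr11:97564748-97574814 on mm9, was the one of the 7 with both knockdown values below both controls before centring. It had 15.4 FPKM with shLuc (11.6 to 19.2), 14.7 with shGFP (11.0 to 18.5), 11.5 with shFox2-1 (8.31 to 14.6) and 11.8 with shFox2-2 (7.97 to 15.6). Its controls differed by -0.06 on the log2 scale and its log2 fold change was -0.35 ± 0.12, with an unadjusted limma p of 0.0337 and an adjusted limma p of 0.978. The 4 intervals overlapped. After centring, Psmb2 also had both knockdown values below both controls.

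The 19S base holds the ring of 6 AAA ATPases, Psmc1 to Psmc6, that unfolds substrates. Their means ran from 26.3 FPKM for Psmc1 to 85.7 for Psmc3, a 3.25-fold range, narrower than that of the alpha ring. Psmc1 had 24.3 FPKM with shLuc, 28.8 with shGFP, 28.0 with shFox2-1 and 24.3 with shFox2-2. Psmc3 had 79.3 FPKM with shLuc, 90.1 with shGFP, 87.7 with shFox2-1 and 85.6 with shFox2-2. None of the 6 had both knockdown values on one side of the controls, and their log2 fold changes lay between -0.16 and 0.04. Psmc6 had 54.5 FPKM with shLuc, 59.0 with shGFP, 66.0 with shFox2-1 and 42.9 with shFox2-2, with the highest value under one Rbfox2 hairpin and the lowest under the other. After centring, both knockdown values of Psmc4 lay below both controls.

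The non-ATPase part of the base consists of the scaffolds Psmd1 and Psmd2, to which ubiquitin receptors and shuttle factors bind, and is joined by the ubiquitin receptor Psmd4. Psmd4 had 102 FPKM with shLuc, 121 with shGFP, 119 with shFox2-1 and 126 with shFox2-2. Psmd1 had 59.7 FPKM with shLuc, 73.2 with shGFP, 75.3 with shFox2-1 and 60.0 with shFox2-2, and Psmd2 had 41.0 FPKM with shLuc, 48.2 with shGFP, 51.4 with shFox2-1 and 41.9 with shFox2-2. In Psmd1 and Psmd2 the shLuc and shFox2-2 values were low and the other 2 high, and the shGFP interval of Psmd1 lay above its shLuc interval. The 3 log2 fold changes were 0.14 or less.

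The 19S lid removes ubiquitin chains through Psmd14, the metalloprotease that acts with its partner Psmd7 as substrates enter. Psmd14, at chr2:61549826-61638433, had 79.8 FPKM with shLuc (72.1 to 87.4), 86.7 with shGFP (78.3 to 95.1), 100.1 with shFox2-1 (89.4 to 111) and 96.2 with shFox2-2 (84.6 to 108). Both knockdown values were above both controls, also after centring. The shFox2-1 interval cleared that of shLuc and overlapped that of shGFP, and the shFox2-2 interval overlapped both. The log2 fold change was 0.24 ± 0.10, with an unadjusted limma p of 0.065 and an adjusted limma p of 0.978. Its partner Psmd7 had 70.5 FPKM with shLuc, 84.7 with shGFP, 74.9 with shFox2-1 and 64.7 with shFox2-2 and, after centring, both knockdown values below both controls. Psmd11, a scaffold of the lid that sits against the alpha ring and the least abundant lid gene, had 23.1 FPKM with shLuc, 23.4 with shGFP, 24.4 with shFox2-1 and 27.8 with shFox2-2, a log2 fold change of 0.16 ± 0.12. The order of its values was lost on centring. The other 6 lid genes had log2 fold changes from -0.15 to -0.03, among them Psmd13 with 38.7 FPKM with shLuc, 43.4 with shGFP, 46.6 with shFox2-1 and 34.5 with shFox2-2. In Psmd3 the shGFP interval again lay above the shLuc interval.

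Assembly of the base is guided by the chaperones Psmd5, Psmd9 and Psmd10, which bind the ATPases before they join. Psmd5 had 43.4 FPKM with shLuc, 47.3 with shGFP, 48.5 with shFox2-1 and 50.0 with shFox2-2. Psmd9 had 10.4 FPKM with shLuc, 11.1 with shGFP, 11.1 with shFox2-1 and 11.7 with shFox2-2. In both, the knockdown values were the higher ones by a small margin, which for shFox2-1 over shGFP in Psmd9 is not visible in the rounded values. Their log2 fold changes were 0.12 ± 0.11 and 0.08 ± 0.13, and neither order held after centring. Psmd10, also known as gankyrin and the lowest of the 3, had 5.17 FPKM with shLuc, 6.21 with shGFP, 6.17 with shFox2-1 and 5.42 with shFox2-2. The chaperones of the 20S core were outside the name rule, since the table lists them under older names. Psmg1, listed as Dscr2, had 28.6 FPKM with shLuc, 32.0 with shGFP, 32.5 with shFox2-1 and 28.2 with shFox2-2. Its partner Psmg2 (Tnfsf5ip1) had 16.6 FPKM with shLuc, 18.9 with shGFP, 16.4 with shFox2-1 and 15.2 with shFox2-2, and Psmg3 (1810042K04Rik) had 10.5 FPKM with shLuc, 11.4 with shGFP, 8.37 with shFox2-1 and 8.15 with shFox2-2. Both knockdown values were below both controls in Psmg2 and Psmg3, with log2 fold changes of -0.16 ± 0.13 and -0.37 ± 0.13. Pomp, which matures the assembling core, had 46.5 FPKM with shLuc, 52.0 with shGFP, 52.7 with shFox2-1 and 45.0 with shFox2-2, the higher values being those of shGFP and shFox2-1.

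Among the activators, which open the core in place of the 19S cap, the nuclear forms were the abundant ones. Psme3, the subunit of the nuclear PA28-gamma ring, lies at chr11:101177526-101184845 and had 113 FPKM with shLuc (103 to 122), 116 with shGFP (107 to 124), 135 with shFox2-1 (123 to 148) and 135 with shFox2-2 (121 to 148). The knockdown values stood close together and above both controls, and so they did after centring. The shFox2-1 interval cleared that of shLuc and overlapped that of shGFP, and the shFox2-2 interval overlapped both. The log2 fold change was 0.24 ± 0.09, with an unadjusted limma p of 0.0432 and an adjusted limma p of 0.978. Psme4, the nuclear activator PA200, had 78.7 FPKM with shLuc, 76.2 with shGFP, 85.6 with shFox2-1 and 72.4 with shFox2-2, on opposite sides of the controls with the 2 Rbfox2 hairpins.

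The interferon-inducible forms had lower values with both Rbfox2 hairpins in 4 of 5 genes, beside 17.8% of expressed genes. These are the immunoproteasome subunits Psmb8, Psmb9 and Psmb10, which replace Psmb5, Psmb6 and Psmb7, and the cytoplasmic PA28 subunits Psme1 and Psme2, and they were joined as a group after their values were seen. Psme1 and Psme2 are neighbours, at chr14:56197331-56204091 and chr14:56206277-56209938. Psme1 had 14.3 FPKM with shLuc (11.7 to 16.9), 17.3 with shGFP (14.1 to 20.6), 12.7 with shFox2-1 (10.2 to 15.1) and 10.9 with shFox2-2 (8.23 to 13.5). Psme2 had 11.2 FPKM with shLuc (8.27 to 14.1), 13.3 with shGFP (9.92 to 16.7), 7.55 with shFox2-1 (5.30 to 9.81) and 9.36 with shFox2-2 (6.42 to 12.3). In both genes the 2 knockdown values were the lowest and their intervals overlapped a control interval. The log2 fold changes were -0.39 ± 0.16 and -0.49 ± 0.17, with unadjusted limma p-values of 0.0497 and 0.0304 and adjusted limma p-values of 0.978.

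Psmb8 and Psmb9 lie in the MHC region on both sides of the peptide transporter gene Tap1 (chr17:34324825-34333744), at chr17:34335344-34338211 and chr17:34319044-34324275. Psmb8 had 2.37 FPKM with shLuc (1.17 to 3.57), 2.89 with shGFP (1.51 to 4.27), 0.898 with shFox2-1 (0.244 to 1.55) and 1.82 with shFox2-2 (0.632 to 3.01). It was low with both Rbfox2 hairpins, lowest with shFox2-1, and its intervals were wide. Its log2 fold change was -0.64 ± 0.24, with an unadjusted limma p of 0.0369 and an adjusted limma p of 0.978. Psmb9 had 1.28 FPKM with shLuc (0.402 to 2.15), 1.40 with shGFP (0.454 to 2.35), 0.973 with shFox2-1 (0.314 to 1.63) and 2.15 with shFox2-2 (0.881 to 3.42), low with shFox2-1 and highest with shFox2-2, so it did not share the order. Psmb10, the most abundant of the 3, had 13.7 FPKM with shLuc (11.0 to 16.4), 17.6 with shGFP (14.1 to 21.1), 13.4 with shFox2-1 (10.7 to 16.0) and 10.3 with shFox2-2 (7.55 to 13.0). Here shFox2-1 and shLuc were close and shFox2-2 lay lower, with an interval that overlapped that of shLuc and not that of shGFP. The log2 fold change was -0.38 ± 0.19.

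Set against the subunit each one replaces, Psmb8 amounted to 4.72% of Psmb5 with shLuc, 5% with shGFP, 1.81% with shFox2-1 and 3.57% with shFox2-2. Psmb10 amounted to 16.6%, 18.1%, 14.2% and 13.3% of Psmb7 in that order, and Psmb9 to 2.21%, 1.87%, 1.4% and 3.85% of Psmb6. By level, the constitutive sites were thus the main forms in all 4 hairpins. Psme1 amounted to 12.7%, 15%, 9.36% and 8.06% of Psme3, and Psme2 to 9.92%, 11.5%, 5.59% and 6.95%. The 4 ordered genes, Psmb8, Psmb10, Psme1 and Psme2 had both knockdown values below both controls after centring too. In all 5 genes the shGFP value was above the shLuc value, by 0.08 to 0.34 on the log2 scale. The same was true of 67.6% of expressed genes. It was true of 79.0% of those with at least 5 FPKM and a locus under 10 kb.

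**Figure D3:**
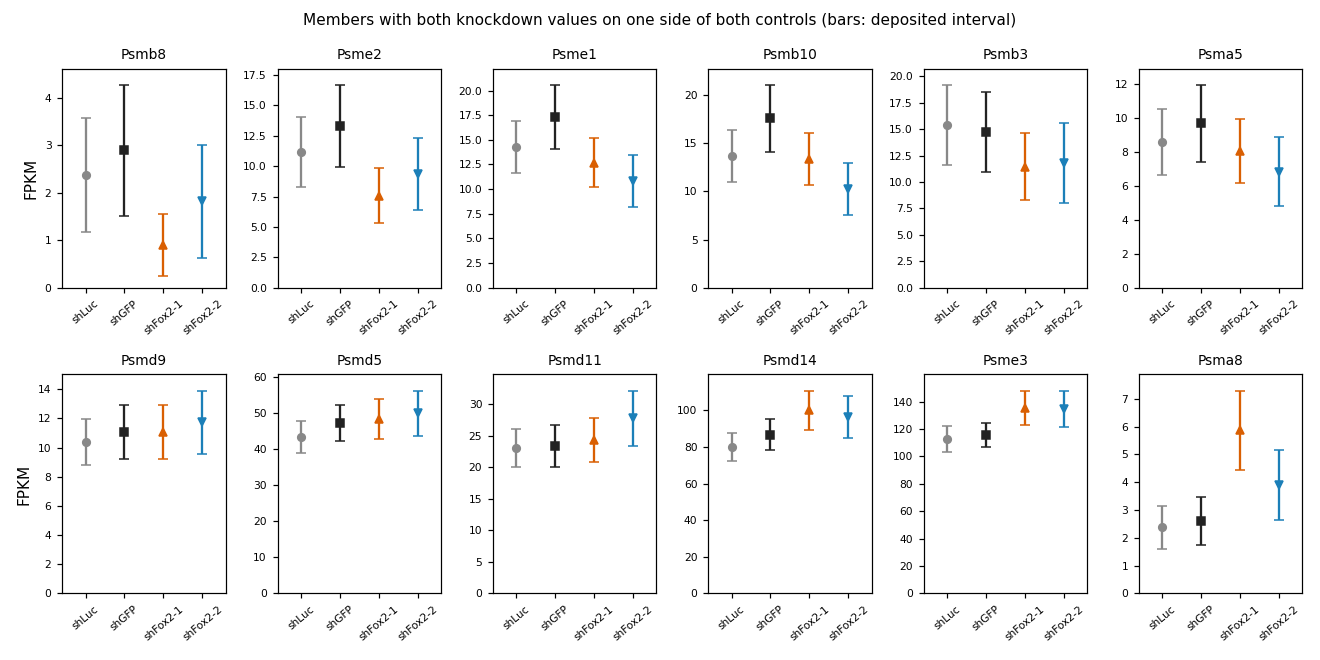
FPKM by hairpin for the 12 members with both knockdown values below (upper row) or above (lower row) both control values. Points are the pooled values, bars the deposited intervals, and each panel starts at 0. In every panel at least 1 knockdown interval overlaps a control interval, and in Psma8 the shFox2-1 interval of 4.43 to 7.30 FPKM lies above both control intervals.

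Psma8, the alpha subunit that takes the place of Psma7 in the proteasomes of the testis, showed the largest log2 fold change among the members at the pseudocount of 1. With a pseudocount of 0.1 the change of Psmb8 was larger in size, at -0.97 against 0.91 for Psma8. The same held without shLuc, at -0.75 against 0.68. Without shFox2-1 the changes of Psmc3ip and Psmb10 were larger in size, at -0.57 and -0.55 against 0.49 for Psma8. Psma8 had 2.38 FPKM with shLuc (1.61 to 3.15), 2.62 with shGFP (1.76 to 3.48), 5.87 with shFox2-1 (4.43 to 7.30) and 3.91 with shFox2-2 (2.64 to 5.17). Both knockdown values were above both controls, and the shFox2-1 interval lay above both control intervals, as in 5.44% of expressed genes, while that of shFox2-2 did not. No other member had a knockdown interval above both controls (0.348% of expressed genes with shFox2-2) or below both (2.11% with shFox2-1 and 1.98% with shFox2-2). The log2 fold change was 0.73 ± 0.21, with an unadjusted limma p of 0.016 and an adjusted limma p of 0.978. Relative to Psma7 its level was 1.18% with shLuc, 1.19% with shGFP, 2.78% with shFox2-1 and 1.65% with shFox2-2. Its row carried the status LOWDATA in all 4 hairpins. This status, whose meaning the table does not explain, was found in at least 1 hairpin for 7 members (16.3%, against 18.1% of expressed genes), and 5 of them, namely Psma8, Psmd5, Psmd9, Psmd11 and Psmd14, were among the 6 members with higher knockdown values. Over the 36 members without it, 1 was higher, Psme3, and 6 were lower, when 11.8% of expressed genes without it were higher and 18.6% lower.

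Psmc3ip was taken in by its prefix and is not a proteasome subunit, since it encodes a factor of meiotic recombination. It had 8.53 FPKM with shLuc, 9.67 with shGFP, 8.90 with shFox2-1 and 5.81 with shFox2-2, low with shFox2-2 alone, and a log2 fold change of -0.30 ± 0.22. After centring, both knockdown values of Psmc3ip lay below both controls.

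RBFOX2 clusters were next placed on the proteasome loci. The authors' list holds 35639 clusters of the tagged library that were enriched over the untagged one, each with a coverage and a fold that are the authors' own. A cluster was counted for a gene when it overlapped its locus by at least 1 base on its strand. At least 1 cluster lay in 27 of the 43 loci (62.8%), against 49.4% of expressed genes and 56.9% of those with a mean of at least 5 FPKM. The share moved with locus length. Under 10 kb, 8 of 20 members held a cluster (24.0% of genes of at least 5 FPKM). Between 10 and 30 kb 12 of 16 did (66.1%), and above 30 kb all 7 did (78.9%). The 80 clusters in member loci had a median coverage of 326.5, against 375 in the loci of all expressed genes, and 9 (11.25%) reached a coverage of 1000, against 21.47%. The untagged library showed nothing at 44 of the 80 (55%), against 44.29% in the loci of expressed genes, and it was amplified for more cycles than the tagged one, per the labels. With each locus cut into 4 equal stretches from the 5' end, these held 18, 28, 11 and 23 clusters (22.5%, 35%, 13.75% and 28.75%), beside 24.94%, 24.68%, 22.46% and 27.91% in the loci of expressed genes.

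The chaperone gene Psmd5 held the cluster of highest coverage. It spanned 898 bases at chr2:34719994-34720891 on the minus strand, with a coverage of 45022 and 9.15-fold enrichment, rank 77 of the whole list, 32.1% of the way along the locus (chr2:34707609-34726503). A second cluster nearby, at chr2:34719663-34719779, had a coverage of 1486 and 82.56-fold enrichment. The FPKM values of Psmd5, given above, differed by 0.12 between knockdown and control on the log2 scale. The deubiquitinase gene Psmd14 held 6 clusters, the highest at chr2:61630054-61630218 with a coverage of 1611 and nothing in the untagged library, 90.6% along the locus. Psme3 held 5, with coverages of 1461 (1.81-fold) at chr11:101183398-101183635 and 1312 (2.15-fold) at chr11:101184668-101184807, both towards the 3' end of the locus.

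The longest member locus, that of Psme4, held the most clusters, 12, with coverages of 150 to 842. In the lid gene Psmd11 the highest cluster within the locus had a coverage of 2062 (chr11:80261763-80261965), and 3 more that carry its gene ID lay past the 3' end of the listed locus, the first with a coverage of 5409 and starting 205 bases beyond it. Clusters that start past the end were found also for Psmd1 (1716 bases beyond) and Psma3 (82 bases), which makes 85 clusters by gene ID. Psma4 held a cluster with a coverage of 2172 at chr9:54799421-54799660, 19.1% along the locus. Psmd13 held one with a coverage of 1824, and Psmd1 one with 1416 (12.64-fold). The top clusters of Psmb2 and Psma3 reached 948 and 944. Neighbouring clusters in the list can overlap by a few bases, as in Psma4 and Psma8, so their number is not a count of sites.

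**Figure D4:**
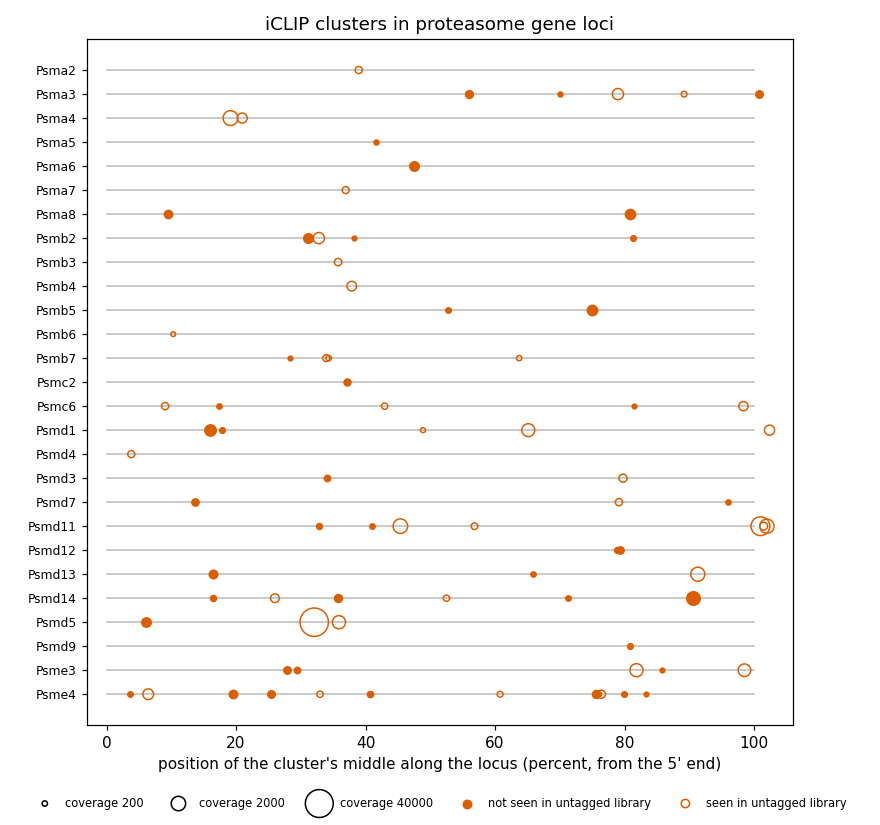
Position of the iCLIP clusters along the locus of each of the 27 members that held one, as percent of the locus from the 5' end (horizontal axis). Symbol area grows with coverage, filled symbols had no coverage in the untagged library, and 5 clusters of Psma3, Psmd1 and Psmd11 lie past 100 percent. The large open circle is the Psmd5 cluster of coverage 45022.

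The 6 members with higher knockdown values all held clusters, 22 in all, and 2 of the 6 with lower values did, 1 each in Psma5 and Psmb3. Among expressed genes the shares were 56.3% and 42.8%. The median locus length was 32.7 kb for the 6 higher and 5.21 kb for the 6 lower members, and the part of length in this contrast was not tested. No cluster lay in any of the 5 interferon-inducible genes, whose loci were all under 10 kb with a median of 3.66 kb. Of expressed genes of at least 5 FPKM with a locus under 10 kb, 24.0% held a cluster. The other 11 members without a cluster were Psma1, Psmb1, Psmc1, Psmc3, Psmc4, Psmc5, Psmd2, Psmd6, Psmd8, Psmd10 and Psmc3ip. By subcomplex, clusters were held by 6 of 7 constitutive alpha genes, 6 of 7 beta genes, 2 of 6 ATPases, 2 of 3 non-ATPases, 6 of 8 lid genes, 2 of 3 base chaperones and 2 of 4 activators.

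Genes that work with the proteasome were described from lists chosen with earlier results known. By limma no gene of these lists had an adjusted p under 0.05, and 0 were separated by intervals. Genes are counted as higher or lower where both knockdown values lay beyond both controls. As given above, 14.3% of all expressed genes were higher and 17.8% lower by this count, and no list was compared with them by a test. Of 16 expressed proteins bound to the proteasome, 4 were higher and 2 lower, and of the 4 higher genes Zfand5 and Ecpas (AI314180) lost that order on centring. The inhibitor gene Psmf1 had 9.75 FPKM with shLuc, 10.1 with shGFP, 13.7 with shFox2-1 and 11.2 with shFox2-2. The 19S ubiquitin receptor gene Adrm1 had 13.3 FPKM with shLuc, 12.8 with shGFP, 10.3 with shFox2-1 and 11.3 with shFox2-2. Their log2 fold changes were 0.29 ± 0.15 and -0.25 ± 0.13. The shuttle factor gene Ubqln2, with the largest ordered change of the list, had 18.8 FPKM with shLuc, 20.5 with shGFP, 16.2 with shFox2-1 and 15.3 with shFox2-2 and a log2 fold change of -0.30 ± 0.12. Usp14, a deubiquitinase of the 19S cap, had 47.3 FPKM with shLuc, 48.1 with shGFP, 55.6 with shFox2-1 and 56.3 with shFox2-2. Among 9 regulators of proteasome genes, 0 were higher (14.3% of expressed genes) and 1, the stress factor Nfe2l2, was lower (17.8%), with 15.0 FPKM with shLuc, 16.5 with shGFP, 14.3 with shFox2-1 and 13.5 with shFox2-2. Nfe2l1 had 20.4 FPKM with shLuc, 23.9 with shGFP, 24.1 with shFox2-1 and 18.7 with shFox2-2, with shLuc and shFox2-2 low and the other 2 high, and held 2 clusters, the higher with a coverage of 2368.

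The ubiquitin-activating enzyme gene Uba1 (listed as Ube1x) had 139 FPKM with shLuc, 151 with shGFP, 164 with shFox2-1 and 179 with shFox2-2, both knockdown values lying above both controls, with a log2 fold change of 0.24 ± 0.10. Of 8 genes of the segregase p97 and its cofactors, 3 were higher (14.3% of expressed genes) and 1 lower (17.8%), and of the 3 higher genes Ubxn1 (D19Ertd721e) lost that order on centring. Faf2 (Ubxd8), a cofactor with a higher value under both Rbfox2 hairpins, had 14.1 FPKM with shLuc, 14.2 with shGFP, 19.2 with shFox2-1 and 16.8 with shFox2-2 and a log2 fold change of 0.32 ± 0.13. Of 9 expressed genes of antigen processing, which act on the peptides the immunoproteasome makes, 0 were higher (14.3% of expressed genes) and 3 lower (17.8%), namely H2-K1, H2-D1 and Irf1, and H2-D1 lost that order on centring. H2-K1, an MHC class I heavy chain, had 20.0 FPKM with shLuc, 17.0 with shGFP, 8.05 with shFox2-1 and 14.6 with shFox2-2 and a log2 fold change of -0.71 ± 0.27. Tap1 had 1.95 FPKM with shLuc, 1.69 with shGFP, 1.50 with shFox2-1 and 2.64 with shFox2-2, highest with shFox2-2 as was Psmb9 beside it. Summed over the 10 genes found, the levels were 62.7 FPKM with shLuc, 61.4 with shGFP, 43.4 with shFox2-1 and 56.6 with shFox2-2. Of these sums H2-K1 alone gave 20.0, 17.0, 8.05 and 14.6 FPKM in that order, so they lean on this gene. Against the control mean, the median of the 9 expressed genes was -0.29 with shFox2-1 and 0.01 with shFox2-2, on log2(FPKM + 1). Over all expressed genes these medians were 0.07 and -0.09, and the difference was not tested.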

How the data were processed

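Expression was deposited by the authors as FPKM, 1 value per row and hairpin, with a lower and an upper bound and a status, per the file headers. The submitters' processing notes name TopHat2 2.0, Cufflinks 2.1.1 and mm9. Annotation, the scaling between hairpins and the iCLIP aligner and cluster caller are not given in the sources used here. Clusters deposited by the authors are those enriched over the untagged library, with a q-value, a fold and a coverage, per the file headers. Locus starts were read as counted from 0, as Cufflinks writes them, and coordinates are printed counted from 1. The strand of a locus came from RefSeq or from clusters carrying its gene ID, and that of Psmb1 and Psmc3 was not known (no cluster lay on either strand).

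Knockdown was tested against control with limma 3.58.1 in R 4.3.3, using its trend option, on log2(FPKM + 1) values of the 20281 rows above 0 FPKM with no failed status, shFox2-1 and shFox2-2 against shLuc and shGFP, with Benjamini-Hochberg adjustment. A pseudocount of 1 understates changes of low genes. The order of the 4 values and of the deposited bounds was counted over 12632 rows with a mean of at least 1 FPKM. The members and lists were chosen with earlier results of these data known. By the rule for named genes, values are given for the highest and lowest member of each subcomplex, ordered members, immunoproteasome genes, activators, chaperones, members with the top clusters, Pomp, Psmf1, Adrm1, Nfe2l1 and the largest ordered change of each list. Others were chosen after their values were seen. Alternatives were other pseudocounts, filters, centring, each hairpin left out, status OK only, and stricter cluster rules. The labels number the duplicates, and the values pool them. The list of ubiquitin supply genes is not reported here as a whole.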

Additional observations from a re-analysis of the deposited data

Results flagged for a closer look

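In 10 members the 2 Rbfox2 hairpins lay on opposite sides of both controls, and these differences were not tested. The shFox2-1 value was above and the shFox2-2 value below both controls in 9 of them, as in 25.6% of expressed genes. The difference of shFox2-1 minus shFox2-2, on log2(FPKM + 1), was 0.61 for Psmc6 and 0.34 for Psmc2, both ATPases of the base, and 0.33 for Psmc5. In the alpha ring it was 0.52 for Psma1, 0.41 for Psma6 and 0.29 for Psma4. In the lid it was 0.42 for Psmd13 and 0.34 for Psmd6, and for the activator Psme4 it was 0.24. The immunoproteasome subunit Psmb9 went the other way, at -0.68, on values of 0.973 to 2.15 FPKM.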

How the results depend on the processing

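No paired analysis was possible because each value pools the duplicates of a hairpin and carries no replicate number. limma made 0 calls with either other pseudocount, after centring, with status OK only and with any hairpin left out, and 1 call, Rbfox2 and no member, in the fits over rows of at least 1 and of at least 5 FPKM. With a hairpin left out, its group holds 1 pooled value, which limma takes to vary like the other group's 2. The fits with 0 calls did not call Rbfox2 either, so their 0 says nothing of stability. The number of members with both knockdown values on one side, 12, was 7 with status OK only (1 higher and 6 lower, beside 11.8% and 18.6% of expressed genes) and 20 to 35 with a hairpin left out, where fewer values have to be ordered. It split into 7 higher and 22 lower without shLuc (20.3% and 34.4% of expressed genes), 14 and 6 without shGFP (29.4% and 24%), 9 and 26 without shFox2-1 (23.4% and 54.2%) and 18 and 8 without shFox2-2 (50.2% and 28.1%). Without shFox2-2 1 member was separated by intervals, Psma8, and without any other hairpin 0 were. The median log2 fold change was -0.14 without shLuc, -0.18 without shFox2-1, 0.067 without shGFP and 0.069 without shFox2-2, beside -0.04, -0.09, 0.025 and 0.071 for all expressed genes. Members with a cluster numbered 16 when only clusters of at least the list's median coverage were kept, against 35.5% of expressed genes. Under the other cluster rules they numbered 22 to 27, against 43.6% to 50.2% of expressed genes. The log2 fold change of Psmb8 was -0.97 with a pseudocount of 0.1 and -0.27 with 5, and that of Psma8 0.91 and 0.39. The deposited intervals had a median half-width of 11 to 14.8% of the value, so changes smaller than that could not be resolved in single members. Larger changes could be missed too, since both intervals have to clear each other and those of low members such as Psmb8 were wider.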
